A study of Mus musculus with 12 samples.

Results

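The ribosomal DNA copy on chromosome 17 held 23 of the 2798 differentially methylated CpG sites that the authors listed for the whole genome. Its members were taken by position: every row of the authors' deposited table in a 10 kb window of chromosome 17 (GRCm38). The window holds Rn18s-rs5, annotated as a pseudogene, and the low end of the noncoding gene AY036118. The members were thereby chosen by measured values too. Each row of that table had already been selected on its deposited q-value and methylation difference between the groups. The differences below therefore describe the members and test nothing about them. The study used reduced representation bisulfite sequencing (RRBS), in which a restriction enzyme enriches CpG-rich fragments and bisulfite turns unmethylated cytosines into bases read as thymine. It compared splenic CD11c dendritic cells from first-generation (F1) female C57BL/6 mice, all marked as immunised with OVA. The mothers (F0) in the maternal DEHP group (6 libraries) had received di(2-ethylhexyl) phthalate, a plasticiser, at a daily 37 µg per kg over 10 days, and those in the maternal corn oil group (6 libraries) the vehicle, before mating with untreated males. The sources used here do not give the age of the offspring or tie the libraries to animals or litters.

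No methylation level, read count or coverage of a single library was used here, so no spread between libraries and no marker of the sorted cells could be examined, and the depth behind each value is unknown. The authors' deposited table does not state which group was subtracted from which. A positive difference, which the authors called hypermethylated, is read as a higher level after maternal DEHP.

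Ribosomal DNA encodes the structural RNA of the ribosome in a long precursor transcribed by RNA polymerase I in the nucleolus. The precursor begins with an external transcribed spacer, which is cut away, and the 18S RNA of the small ribosomal subunit follows it. Mouse cells carry many tandem copies of this unit on several chromosomes, of which a part is transcribed at any time, and methylation of CpGs in the unit's promoter is known to mark silent copies. The arrays are largely missing from the assembled genome, so reads from any of the copies can be placed on the copy in the chromosome 17 sequence. A difference between the groups at a site here, and a difference in which copies gave the reads, cannot be told apart, and the sources used here do not give how reads with several matches were treated.

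In RefSeq's annotation of GRCm38.p6, Rn18s-rs5 (18S ribosomal RNA, related sequence 5) is a pseudogene of 1849 bp from 39846354 to 39848202 on chromosome 17. AY036118 is a long noncoding RNA gene from 39848112 to 39898385, on the minus strand, and the spans share 91 bp. Of the 23 sites, 6 lay inside Rn18s-rs5 and 17 lay below its lower-coordinate end. None lay inside AY036118: the nearest was 1017 bp below its span and 51.3 kb from its start site at 39898385. The label of AY036118 for these sites therefore goes by neighbourhood alone. The gene table gives no strand for Rn18s-rs5 and no borders of the promoter, the spacer or the 18S RNA, so the 17 sites below the span are described by distance and not assigned to promoter or spacer.

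The 23 sites formed 4 groups along the copy when sites up to 100 bp apart were joined, and each group had a single direction. A run is an unbroken stretch of 1 direction, and the 4 runs were these same groups. In the authors' deposited table, 12 sites were hypermethylated (48.4% of all listed sites were) and 11 were hypomethylated (51.6% of all listed sites). Going up in coordinate, the order was 3 hypermethylated, 5 hypomethylated, 9 hypermethylated and 6 hypomethylated sites. The runs were short, at 16, 48, 73 and 42 bp, and together covered 179 bp of the 2429 bp from the first to the last site. Stretches of 1154, 239 and 860 bp without any listed site separated them. Whether CpGs in those stretches were covered, or differed by less than the minimum of the list, is not known here. Sites as close as those within a run can lie on the same sequenced fragment and are not independent measurements.

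**Figure D1:**
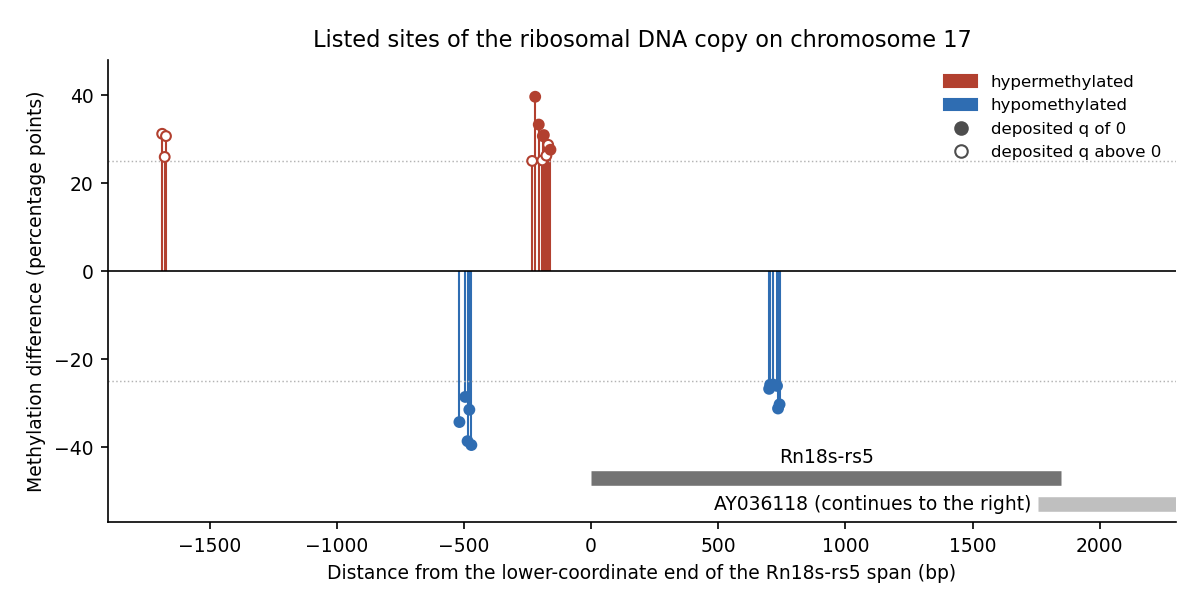
Methylation difference (percentage points, maternal DEHP group against corn oil, direction as read here) of the 23 listed sites against their distance in bp from the lower-coordinate end of the Rn18s-rs5 span; filled points have a deposited q-value of 0, grey bars are the annotated spans and dotted lines mark 25 points either way. The 12 hypermethylated and 11 hypomethylated sites alternate in 4 runs, and the 6 sites inside Rn18s-rs5 are all hypomethylated.

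The run farthest from Rn18s-rs5 lay 1672 to 1687 bp below its lower end and was hypermethylated. In the authors' deposited table its 3 sites, at 39844667, 39844677 and 39844682, gained 31.2, 25.96 and 30.7 percentage points, a mean of 29.3 (SD over sites 2.90). The middle site was lowest, and the outer pair differed from each other by under 1 point. This run had the weakest deposited significance of the copy. Its q-values in the authors' deposited table were 2.03e-08, 1.42e-06 and 6.65e-08, which placed the sites 58th, 10th and 36th from the largest q among all 2798 listed sites. By contrast the site at 39847089, whose difference in the authors' deposited table was also close to 31 points (-31.2), had a q of 0. The read depth at these sites is unknown, so whether it set these q-values apart was not tested.

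The next run lay 471 to 518 bp below Rn18s-rs5 and was hypomethylated, with the largest mean difference of the 4 runs. In the authors' deposited table its 5 sites read -34.3 points at 39845836, -28.6 at 39845859, -38.6 at 39845868, -31.5 at 39845875 and -39.5 at 39845883. The mean was -34.5 points (SD over sites 4.65). Large and small values alternated within 48 bp: the site at 39845875 lay 7 bp from the one before and 8 bp from the one after, and was lower in size than both. All 5 sites had a deposited q-value of 0.

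The third run was the longest and the closest to the annotated end, 160 to 232 bp below Rn18s-rs5, with 9 hypermethylated sites. It began with the lowest and the highest gain of the copy side by side. The authors' deposited table gave 25.1 points at 39846122 and 39.6 points 12 bp further on, at 39846134. The sites that followed in the authors' deposited table were 39846148 (33.3 points), 39846162 (25.2 points), 39846164 (30.7 points), 39846168 (30.9 points), 39846178 (26.3 points), 39846185 (28.7 points) and 39846194 (27.6 points). After 39846134 no site of the run came back to its level, and the mean of all 9 was 29.7 points (SD over sites 4.66). Sites only 2 bp apart, at 39846162 and 39846164, differed by more than 5 points. A q-value of 0 was deposited for 4 of the 9 sites, and the largest q of this run in the authors' deposited table was 5.74e-11.

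The fourth run was the one inside the annotated span of Rn18s-rs5, 700 to 741 bp from the lower end, or 37.9% to 40.1% of the way through. In the authors' deposited table its 6 sites were all hypomethylated, by -26.7 points at 39847054, -25.8 at 39847058, -25.8 at 39847070, -26.1 at 39847085, -31.2 at 39847089 and -30.3 at 39847095. The lower 4 sites sat within about 1 point of each other and the upper pair stood further from 0. The mean was -27.6 points (SD over sites 2.44), the smallest in size of the 4 runs, and all 6 sites had a deposited q-value of 0. The listed sites within the annotated Rn18s-rs5 span were thus this 1 run and had its direction. The 17 sites below the span made up the other runs, with 12 gains and 5 losses in all. The rest of the span, 700 bp below the fourth run and 1107 bp above it, held no listed site.

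**Figure D2:**
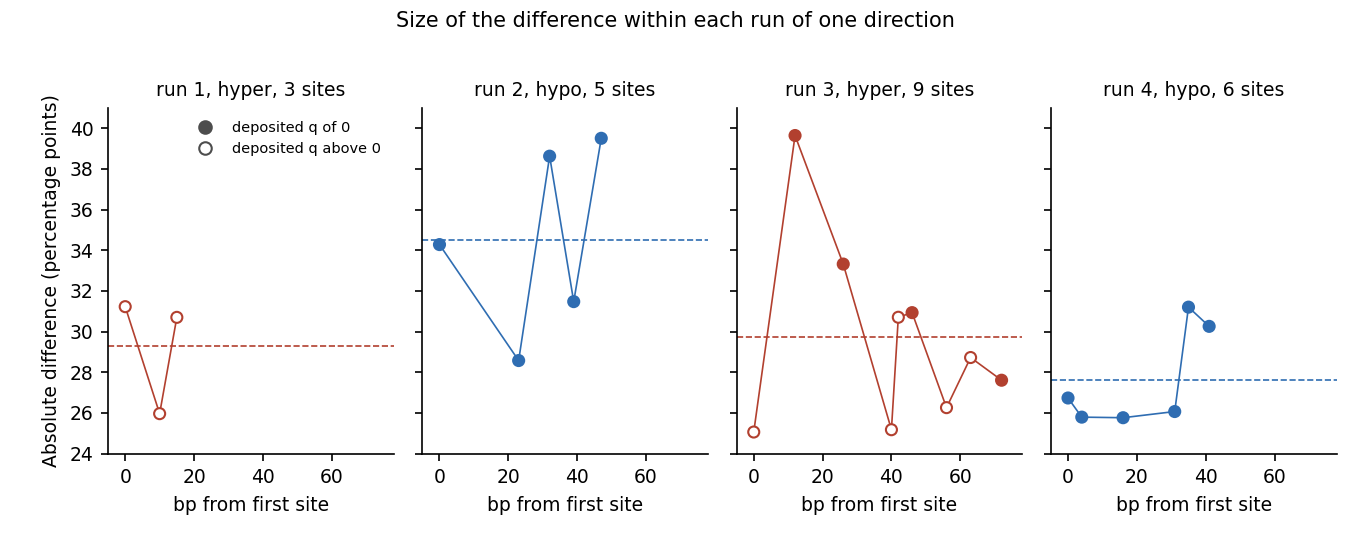
Absolute methylation difference (percentage points) of each site against its distance in bp from the first site of its run, one panel per run in order of coordinate; the y axis starts at 24 points because the list holds no difference under 25, the dashed line is the mean of the run, and filled points have a deposited q-value of 0. The means are 29.3, -34.5, 29.7 and -27.6 points, drawn here without sign.

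Gains and losses nearly cancelled over the 23 listed sites, as they did over the whole list. The mean signed difference was 0.74 points, beside -0.84 points over all listed sites. Gains had a median of 29.7 points and losses a median of -30.3 points in the authors' deposited table. The median absolute difference was 30.3 points (range 25.1 to 39.6), beside 28.7 points over all listed sites. Of the 23 members 12 differed by at least 30 points, against 39.4% of all listed sites, and none by 40 points or more. A deposited q-value of 0 was given for 15 of the 23, against 74.1% of all listed sites. The largest, at 39846134, ranked 167th of 2798 by absolute difference.

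No other place in the list combined so many sites with both directions. Among fixed windows of 10 kb, 2267 held a listed site and 25 held at least 4, and the ribosomal copy came first with 23. The next were a window on chromosome 19 with 15 sites, 7694 bp from the noncoding gene Gm38527, a window at the X-linked transcription factor gene Sox3 with 13, and a window at the imprinted gene Snurf with 9. Each of these 3 had a single direction: all sites at Gm38527 and Sox3 were hypomethylated, and all at Snurf were hypermethylated. Of the other 24 windows with at least 4 sites, 9 held both directions. In 8 of those 9 the rarer direction had 1 site, and in the other, 15428 bp from the noncoding gene Gm40857 on chromosome 12, it had 2, beside 11 in the ribosomal copy. That chromosome 12 window also changed direction often, with 4 sites in 4 runs. These are counts of a list that was itself selected, and no test was made of them. The number of covered CpGs in each window is not known here, so the counts could not be set against it.

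**Figure D3:**
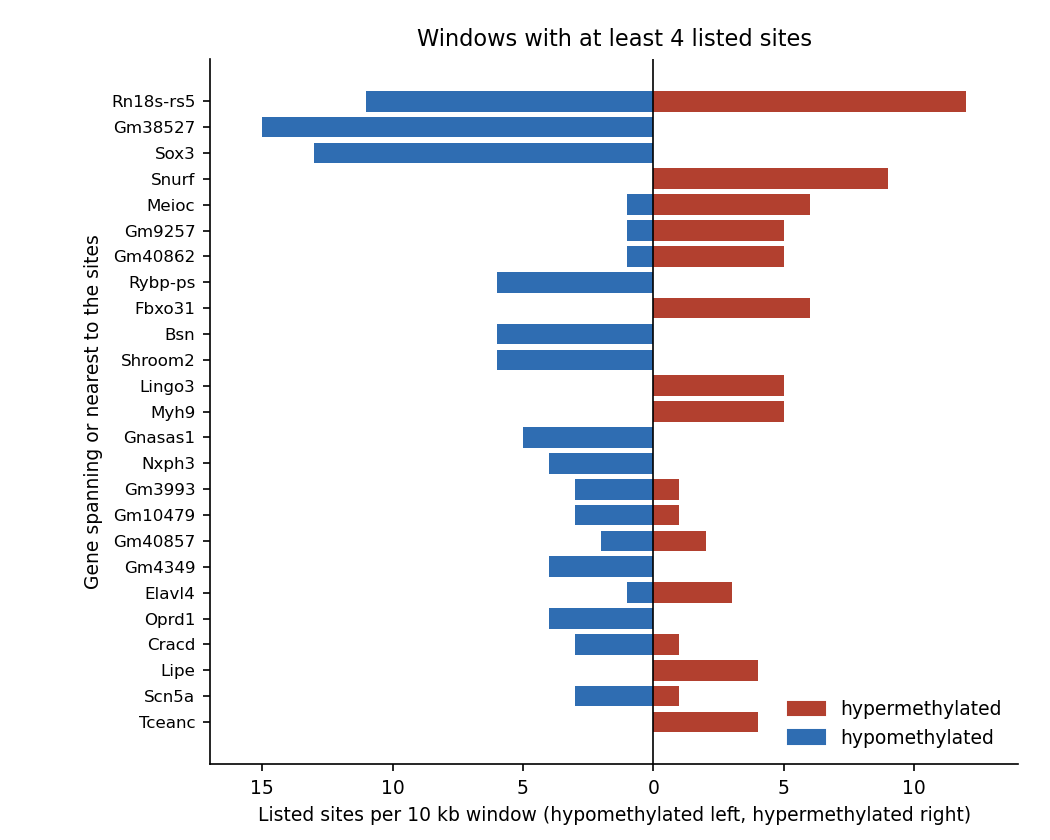
Number of listed sites in each 10 kb window with at least 4 of them, hypomethylated sites to the left of 0 and hypermethylated sites to the right, each window labelled by the gene that spans its sites or lies nearest to them. The ribosomal copy (Rn18s-rs5) has 11 to the left and 12 to the right, while no other window has more than 2 sites of its rarer direction.

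Neighbouring sites within the copy shared their direction at short distance and differed at long distance. Of its 22 neighbouring pairs, 19 lay 2 to 23 bp apart, and all of these had the same direction. Of these pairs 13 lay within 10 bp, a distance at which 77 of 79 other neighbouring pairs (97.5%) also shared a direction. Over all distances up to 100 bp, 275 of 317 other pairs (86.8%) did. The 3 remaining pairs of the copy, at 239, 860 and 1154 bp, had opposite directions. Among the other listed sites 23 of 34 neighbouring pairs over 200 and up to 2000 bp apart (67.6%) were opposite. The copy has no neighbouring pair over 100 and up to 200 bp apart, the distance at which 123 of 146 other pairs (84.2%) were opposite. With 3 long pairs in the copy, a difference from the other sites was not testable.

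**Figure D4:**
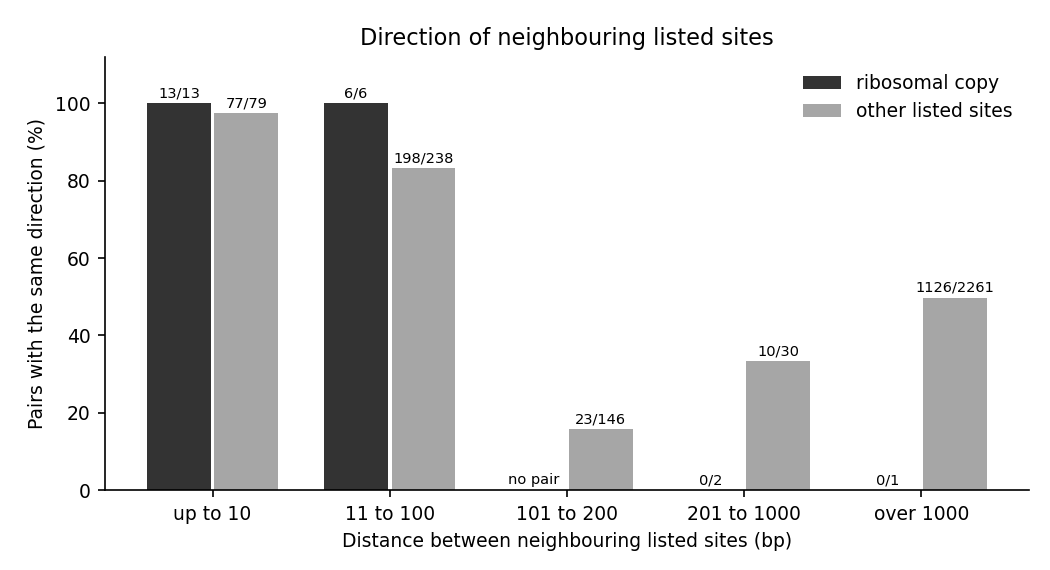
Share of neighbouring listed sites with the same direction (percent) by their distance in bp, for pairs within the ribosomal copy (dark) and for all other neighbouring pairs on a chromosome (light); the fraction above each bar gives the pairs counted. All 19 pairs of the copy within 100 bp share a direction, and its 3 pairs over 200 bp apart do not.

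The 4 runs also lay closer together than any other clusters of the list. Joining listed sites up to 100 bp apart gave 59 clusters of at least 3 sites, and the 4 runs were 4 of them, each with 1 direction. Of the other 55 clusters, 42 had 1 direction (76.4%). The run of 9 was exceeded in number of sites by 2 clusters, and the run of 6 by 4, the run of 9 among them. The 3 gaps between the runs were the only ones under 10 kb between neighbouring clusters on any chromosome, the next smallest being 347 kb. The first run was also 1 of 2 clusters among the 59 without any q-value of 0. Chromosome 17 held 125 other listed sites. The nearest below the copy lay 522 kb away, at 39322373 (29.2 points in the authors' deposited table), and the nearest above lay 782 kb away, at 40629432 (-29.1 points).

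The share of genes that make or process ribosomal RNA with a listed site was near that of all protein-coding genes and slightly above it. The difference was not tested. Of 59 genes for RNA polymerase I, its factors, chromatin regulators of ribosomal DNA and processing proteins, 5 (8.47%) had a listed site in the span or within 5 kb, against 6.51% of 21900 protein-coding genes. The genes of the list were longer, with a median span of 22.1 kb against 17.1 kb. In the authors' deposited table Polr1a, which encodes the largest subunit of RNA polymerase I, held a loss of -29.1 points at 71964927 on chromosome 6. Kdm2b, which encodes a histone demethylase, held a gain of 26.0 points at 122882416 on chromosome 5. For processing, the authors' deposited table placed a gain of 29.7 points 3270 bp outside Fbl, the gene of the RNA methyltransferase fibrillarin on chromosome 7. Bop1, a gene for maturation of the large ribosomal subunit on chromosome 15, held 2 losses 85 bp apart, -31.1 and -25.8 points in the authors' deposited table. Tcof1, on chromosome 18, encodes treacle, a nucleolar protein that takes part in ribosomal DNA transcription. It held sites of opposite direction 138 bp apart, 29.4 points at 60841506 and -34.8 points at 60841644 in the authors' deposited table. Of these 7 sites 3 were gains and 4 were losses. None of the 65 genes that RefSeq annotates as ribosomal RNA, 51 of them of the n-R5s series of 5S genes, had a listed site within 5 kb, a count added after the values were seen. With a median span of 121 bp and 48 of them on chromosome 8, these are short and clustered, and among the 6542 other genes with a span up to 500 bp only 1.28% had one, so the 0 is not told apart from that share.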

How the data were processed

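RRBS libraries from 12 samples were compared by the authors, who deposited 1 table of listed sites and its hypermethylated and hypomethylated parts. The columns, per the file headers, are the position and strand of a site, its methylation difference (in percentage points, from the values), its p-value and its q-value. The submitters' processing notes name methylKit and GRCm38 (mm10). The sources used here do not give its version, the aligner, the coverage minimum or the form of the test. The smallest absolute difference in the deposited table was 25.0 points and the largest deposited q-value 3.62e-05, so smaller differences are not seen. Deposited p-values of 0 (2073 sites) lie below the smallest non-zero value, 1.11e-16. All rows were on the plus strand. The 23 members had the same values in the split tables.

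Members were taken by position. A run is an unbroken stretch of 1 direction, and clusters join sites up to 100 bp apart. Genes and start sites came from RefSeq (GRCm38.p6), and the 59 listed genes for ribosomal RNA transcription and processing were all matched, 3 by older symbols. The genes named were the 2 of the copy, every gene of that list with a site, and the 3 next windows by number of sites; Gm40857 was chosen after its values were seen. Members and lists were chosen with earlier results of these data known. No test was made, for want of values per library. Run detection was tested on simulated data. Python 3.11.15, pandas 2.3.3 and numpy 2.4.6 were used. Alternatives were a minimum of 30 points, a q-value of 0, the Rn18s-rs5 span alone, merging of sites within 10 bp, and other gene margins.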

Additional observations from a re-analysis of the deposited data

How the results depend on the processing

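No paired analysis was possible because no value per library was used, and for the same reason no library could be left out. The read depth is unknown, so what it limits cannot be stated. With a minimum of 30 points, 6 hypermethylated and 6 hypomethylated sites in 4 runs were left, with 8 neighbouring pairs of the same direction. With sites within 10 bp merged, 5 hypermethylated and 5 hypomethylated positions in 4 runs were left, with 6 such pairs. Neither setting could reverse the direction of a run: the first only drops sites, and all neighbouring members within 10 bp shared a direction. With deposited q-values of 0 alone, 4 hypermethylated and 11 hypomethylated sites in 3 runs were left, with 12 such pairs, since no site of the first run has a q of 0. Within the Rn18s-rs5 span alone, 0 hypermethylated and 6 hypomethylated sites in 1 run were left, with 5 such pairs. In these settings fewer positions were counted. The median absolute difference ranged from 26.4 points (Rn18s-rs5 span alone) to 31.4 points (minimum of 30 points). In the latter setting the minimum itself fixed a median of at least 30 points. Genes for ribosomal RNA transcription and processing with a listed site numbered 8 (13.6%, against 10.7% of protein-coding genes) with 20 kb around the span. They numbered 2 (3.39%, against 3.02%) with a minimum of 30 points. With the gene span only they numbered 4 (6.78%, against 4.95%), and with a q-value of 0 also 4 (6.78%, against 5.0%).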
